A study of Mus musculus with 30 samples.

Results

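The mitochondrial fatty acid oxidation enzymes are described here by 10 genes out of the 41128 in each deposited count file: Cpt1a, Cpt1b and Cpt2, Acadvl, Acadl, Acadm and Acads, Hadha and Hadhb, and Acaa2. They were chosen by name, with earlier results of these data known, and followed in aortae and kidneys of male mice. Aortae gave 14 libraries (3 WT-SFD, 4 WT-HFD, 3 KO-SFD and 4 KO-HFD) and kidneys 16 (4 per group), each from a single mouse. KO mice carry loxP sites in both Egfr alleles (EGFRflox/flox) and a tamoxifen-inducible Cre, located on the Y chromosome and driven by the promoter of Smmhc (Myh11), a smooth muscle myosin, so that Egfr, the epidermal growth factor receptor, is deleted in vascular smooth muscle. WT mice carry the same Cre without loxP sites, and the strain background is labelled C57Bl6J. All received 1 mg tamoxifen per day for 5 days, and the high-fat diet (HFD) began 7 days later, at 6 weeks of age, and lasted 18 weeks, against a standard-fat diet (SFD). The comparisons ask how diet and loss of smooth muscle Egfr bear on expression in both organs.

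Fatty acid oxidation in mitochondria starts with the carnitine shuttle. Cpt1a and Cpt1b, the 2 outer membrane carnitine palmitoyltransferases measured here, load long-chain acyl groups onto carnitine and set the pace of the pathway, with Cpt1b typical of muscle and brown fat, and Cpt2 returns them to coenzyme A inside. Acyl-CoA dehydrogenases then open each round, Acadvl on very long chains, Acadl on long, Acadm on medium and Acads on short chains. Hadha and Hadhb are the subunits of the trifunctional protein, which carries out the next steps on long chains, and the thiolase Acaa2 splits off acetyl-CoA from medium chains. The kidney's tubules draw much of their energy from this pathway, and so do adipose tissue of the brown type, heart and skeletal muscle.

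The promoters of 8 of the 10 genes were found in RefSeq (GRCm38.p6) and were read as the 250 bases before the start site, 5′ to 3′ along the gene. 3 sequences are shown. Acadm and Acadl encode dehydrogenases of neighbouring chain lengths whose levels varied together in the aorta, while in the kidney the Acadm groups did not overlap between the diets and the Acadl groups did, and Hadha and Hadhb start next to each other on opposite strands. Capitals mark AGGTCA, the core letters bound by many nuclear receptors, and GGGCGG, the GC box, on either strand, so that capitals may show the reverse complement. The gap between Hadha and Hadhb, which holds no annotated exon, has only its GC boxes marked.
Acadm, chr3:153944644-153944893, minus strand: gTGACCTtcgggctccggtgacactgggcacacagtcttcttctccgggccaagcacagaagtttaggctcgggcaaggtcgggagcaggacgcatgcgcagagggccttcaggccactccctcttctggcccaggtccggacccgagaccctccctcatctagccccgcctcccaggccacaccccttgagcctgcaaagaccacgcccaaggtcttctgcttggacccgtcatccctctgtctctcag
Acadl, chr1:66863310-66863559, minus strand: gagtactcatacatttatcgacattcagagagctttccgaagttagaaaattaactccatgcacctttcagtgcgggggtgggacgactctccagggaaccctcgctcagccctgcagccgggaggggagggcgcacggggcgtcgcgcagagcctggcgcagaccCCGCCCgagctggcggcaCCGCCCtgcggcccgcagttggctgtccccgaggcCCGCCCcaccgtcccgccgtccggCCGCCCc
Between Hadha and Hadhb, chr5:30155163-30155247, plus strand, 85 bases: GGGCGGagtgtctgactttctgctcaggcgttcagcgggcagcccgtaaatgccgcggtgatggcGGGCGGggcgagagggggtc
The Acadm window held the receptor letters once, on the strand opposite to the gene and 249 to 244 bases before the start, and no GC box, whereas the Acadl window held 4 GC boxes and no receptor letters. The receptor letters stood in 3 of the 8 windows (Acadm, Acadvl and Cpt1a), against 4607 of all 32851 windows of this length. The GC box stood in 6 of the 8 (Acadl, Cpt2, Hadha, Hadhb, Acads and Cpt1a), against 32.7% of all windows. The RefSeq start sites of Hadha and Hadhb are 272 bases apart, so that their windows overlap. The only GC box of the Hadha window is the same site as a GC box of the Hadhb window and is counted under both genes. The share of G and C in the 8 windows ran from 49.6% (Acadvl) to 68.0% (Acadl). Only Acadvl lay below the median of all windows, 52.4%. The part of this base content in the GC box share was not tested. In mm10 Acadm lies at chr3:153922357-153944632, Acadl at chr1:66830839-66863277, Hadha at chr5:30118304-30155162, Hadhb at chr5:30155248-30184593 and Cpt1a at chr19:3322334-3385733. A match of letters is a description and does not show that a factor binds.

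The depth of the libraries was 6403699 to 13052870 counts in the aorta (median 8998366) and 16354880 to 28331314 in the kidney (median 19544128). Levels are given as FPM, counts per 1000000 counts of the library after scaling by edgeR's TMM factors. Fold changes and p values come from the quasi-likelihood test of edgeR, adjusted after Benjamini and Hochberg over the 14796 genes tested in the aorta or the 15034 in the kidney. All 10 genes passed the filter on low counts in both tissues. A gene is called at an adjusted p under 0.05. Mice are numbered within their group and tissue, and 3 of them gave both tissues.

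Egfr, the targeted gene, was lower in every KO aorta than in every WT aorta on the same diet (4.37% of all genes on SFD and 2.03% on HFD). With library totals in place of TMM factors the SFD groups overlapped, at 36.8 FPM in WT mouse 2 and 39.8 FPM in KO mouse 2. In WT-SFD aortae it measured 46.7, 39.5 and 54.3 FPM, and in KO-SFD aortae 26.8, 35.5 and 28.0 FPM. WT-HFD aortae had 65.1, 57.0, 51.2 and 57.0 FPM, and KO-HFD aortae 27.5, 40.6, 39.7 and 33.4 FPM. The KO-to-WT log2 fold change was -0.64 ± 0.166 (SE) on SFD and -0.70 ± 0.142 on HFD, with adjusted p values of 0.531 and 0.130, so that neither passed over all genes. In the kidney, where smooth muscle is a small part of the tissue, the genotypes overlapped on both diets, with 39.1 to 58.4 FPM in WT-SFD against 46.7 to 60.8 in KO-SFD, and 36.9 to 56.6 in WT-HFD against 40.5 to 45.5 in KO-HFD. Within KO every HFD kidney was below every SFD kidney (3.85% of all genes), with a log2 fold change of -0.31 ± 0.133 that was not called (adjusted p = 0.254). With library totals these kidney groups overlapped, at 43.8 FPM in KO-SFD mouse 2 and 48.3 FPM in KO-HFD mouse 2.

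The tissue labels were compared with marker genes. Smooth muscle markers summed to 9437 to 17058 FPM in the aorta and to 121 to 182 FPM in the kidney, with 4 of 6 listed genes counted, Acta2 as the most abundant in the aorta, and Tagln and Cnn1 at 0 in every library of both tissues. Both lie on chromosome 9, where all 1229 protein-coding genes are listed at 0 in both files, as are those of chromosomes X and Y and of the mitochondrial genome and the last 313 protein-coding genes of chromosome 8, so that these zeros say nothing about the tissue. None of the 10 genes lies there. Proximal tubule markers summed to 17415 to 36121 FPM in the kidney, led by Kap with all 6 counted, and to 1.50 to 9.38 FPM in the aorta. The aortae had been cleaned of fat and connective tissue before freezing, yet markers of fat were present and differed greatly between mice. The 8 white adipocyte markers, led by Car3 and all counted, summed to 4074, 3161 and 128 FPM in WT-SFD, 148, 115, 211 and 178 in WT-HFD, 2948, 1014 and 130 in KO-SFD, and 68.3, 150, 101 and 46.2 in KO-HFD. The 6 brown adipocyte markers, led by Ucp1, the uncoupling protein of brown fat, and also all counted, summed to 1108, 635 and 28.0 FPM in WT-SFD, 70.3, 50.9, 64.1 and 68.8 in WT-HFD, 531, 241 and 25.6 in KO-SFD, and 28.4, 64.3, 67.4 and 38.7 in KO-HFD. WT-SFD mice 1 and 2 and KO-SFD mice 1 and 2 therefore stood apart from the other 10 aortae, and WT-SFD mouse 3 and KO-SFD mouse 3 did not. The aorta of WT-SFD mouse 2 also held 365 FPM of heart muscle markers, and that of KO-SFD mouse 2 held 59.8 FPM, against 6.14 to 19.7 FPM in the other 12. Skeletal muscle markers summed to 14.2 FPM in WT-SFD mouse 1, against 1.61 to 6.26 FPM in the others. Leucocyte markers summed to 66.0 FPM in KO-SFD mouse 1, against 9.17 to 43.1 FPM in the others. Smooth muscle markers were lowest in WT-SFD mice 1 and 2 and KO-SFD mouse 1 (9437, 11656 and 10150 FPM, against 14140 to 17058 in the others), and so were fibroblast markers, led by Col1a1 with all 4 counted (1026, 848 and 848 FPM, against 1158 to 1687).

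In the aorta 9 of the 10 genes had lower values on HFD than on SFD in both genotypes, and Cpt1a did not. For WT mice the median log2 fold change of the 10 was -1.81, against -0.01 over all genes tested, and for KO mice it was -1.36, against -0.00. With a library left out the median ran from -2.28 (without WT-SFD mouse 3) to -1.31 (without WT-SFD mouse 1) in WT, and from -1.75 (without KO-SFD mouse 3) to -0.66 (without KO-SFD mouse 1) in KO. None was called in either genotype, where edgeR called 0% of all genes. At an unadjusted p under 0.05, 9 of the 10 were lower in WT (11.3% of all genes) and 7 of the 10 in KO (5.11% of all genes). DESeq2 called 3 of the 10 in WT (Acadl, Acadm and Hadha), where it called 666 of the 14796 genes, and none in KO, where it called 8 genes.

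Among the 4 dehydrogenases the WT estimates were larger for Acadl and Acadm than for Acadvl and Acads. Acadm measured 295, 220 and 44.0 FPM in WT-SFD and 48.4, 55.1, 52.6 and 49.4 FPM in WT-HFD aortae. KO-SFD aortae had 210, 109 and 54.1 FPM, and KO-HFD aortae 38.9, 47.3, 52.2 and 51.4 FPM. The highest values came from the 4 mice with high adipocyte markers, while WT-SFD mouse 3 lay below every WT-HFD mouse. In KO the groups did not overlap (3.59% of all genes were lower in every mouse). The log2 fold change of Acadm was -1.86 ± 0.464 (SE, adjusted p = 0.0686) in WT and -1.39 ± 0.463 (adjusted p = 0.544) in KO.

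Acadl measured 287, 218 and 33.8 FPM in WT-SFD, 36.7, 36.9, 33.5 and 43.9 in WT-HFD, 237, 98.9 and 35.6 in KO-SFD, and 34.0, 34.7, 42.2 and 32.6 in KO-HFD. The same 4 mice were high and the groups overlapped in both genotypes. Its log2 fold change was -2.25 ± 0.562 in WT (adjusted p = 0.0686) and -1.78 ± 0.558 in KO (adjusted p = 0.526). Acadvl ran from 14.1 to 107 FPM over the 14 aortae and Acads from 6.71 to 44.4 FPM. Their log2 fold changes were -1.56 ± 0.488 and -1.37 ± 0.456 in WT, and -1.35 ± 0.495 and -0.74 ± 0.472 in KO. Of the 2686 exonic bases of Acadvl, 1151 are also annotated to Dvl2 on the opposite strand, so without a stated strand setting its counts may hold reads of that gene.

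Hadha, the larger subunit of the trifunctional protein, measured 387, 270 and 58.2 FPM in WT-SFD and 70.4, 58.2, 77.7 and 71.5 FPM in WT-HFD aortae. In KO it measured 219, 111 and 56.7 FPM on SFD and 60.5, 68.0, 71.9 and 63.5 FPM on HFD. Hadhb had the same high mice, with 159, 123 and 23.7 FPM in WT-SFD and 26.0, 21.3, 36.3 and 34.0 FPM in WT-HFD, and it ran from 17.1 to 92.7 FPM in KO. Hadha shares 75 of its 8730 exonic bases with Garem2 on the opposite strand. The log2 fold changes in WT were -1.78 ± 0.460 for Hadha (adjusted p = 0.0711) and -1.80 ± 0.513 for Hadhb (adjusted p = 0.0821). In KO they were -0.97 ± 0.458 and -1.19 ± 0.516. Acaa2 had 129, 85.3 and 13.3 FPM in WT-SFD and 12.9 to 23.5 FPM in WT-HFD, a log2 fold change of -2.11 ± 0.592 (adjusted p = 0.0791). Its KO log2 fold change was -1.70 ± 0.593.

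The carnitine shuttle split. Cpt1a, its outer enzyme in most organs, measured 67.0, 88.1 and 69.0 FPM in WT-SFD, 92.0, 72.8, 68.4 and 75.6 in WT-HFD, 77.3, 62.1 and 74.7 in KO-SFD, and 77.0, 78.5, 79.7 and 73.7 in KO-HFD aortae. The groups overlapped widely and the log2 fold change with diet was 0.05 ± 0.124 in WT and 0.11 ± 0.124 in KO. Cpt2, its inner enzyme, measured 96.4, 68.0 and 13.3 FPM in WT-SFD and 11.4, 17.3, 20.1 and 17.8 FPM in WT-HFD, a log2 fold change of -1.83 ± 0.515 (adjusted p = 0.0792). The KO log2 fold change of Cpt2 was -1.36 ± 0.523. Cpt1b was scarce, with 19, 13 and 0 counts in WT-SFD, 1, 5, 5 and 0 in WT-HFD, 17, 8 and 2 in KO-SFD and 4, 3, 2 and 1 in KO-HFD. A gene on the same strand (Gm44502) shares 2744 of its 3372 exonic bases, so that its counts are uncertain in both tissues.

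**Figure D1:**
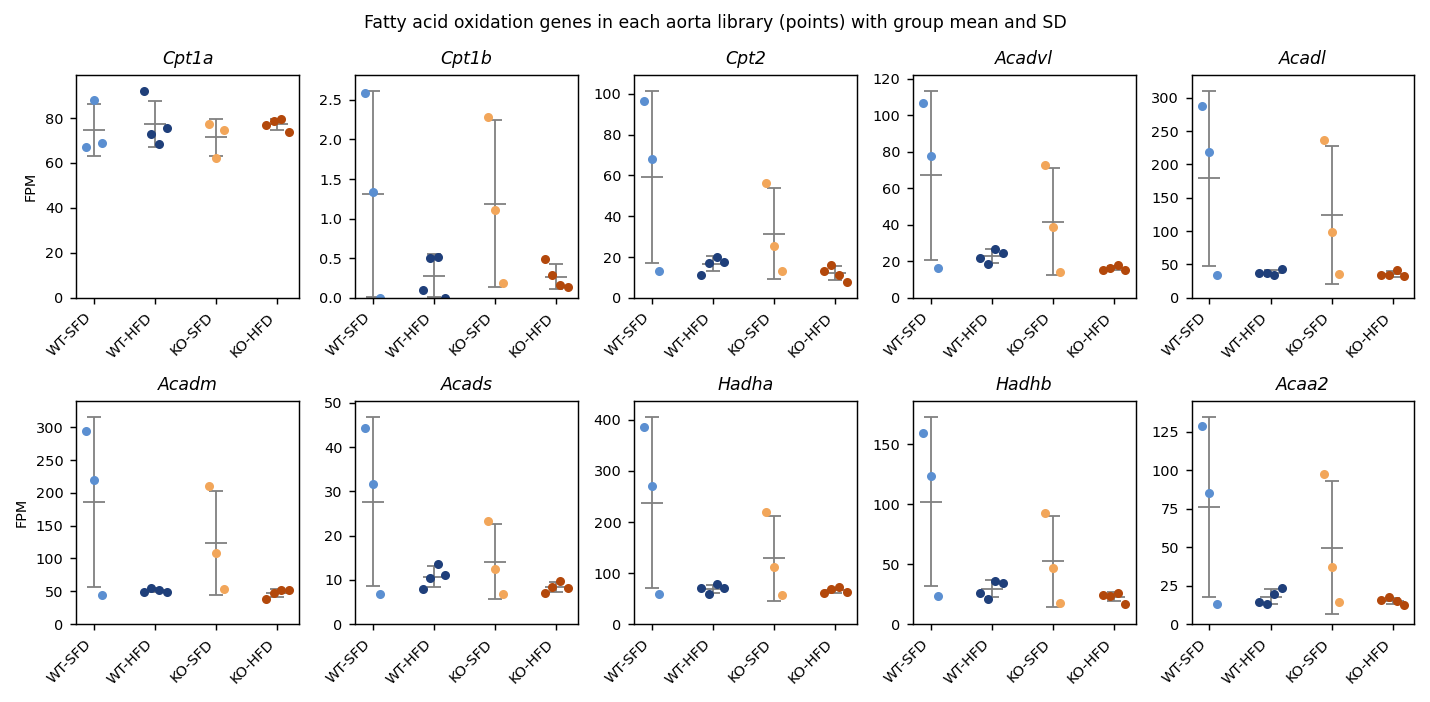
FPM of each gene (vertical axes, each from 0) in the 14 aorta libraries by group, with points for mice and grey bars for the group mean and SD. Apart from Acads and Cpt1a, the 4 highest points of each panel are SFD mice and the other SFD mice lie no higher than the highest HFD mouse, whereas the Cpt1a points of all groups lie between 62.1 and 92.0 FPM.

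With the diet effects of WT and KO averaged in the same fit, a contrast added after the data had been seen, 7 of the 10 genes fell in the aorta, where 3.95% of all genes were called and 3.58% were lower. These were Acadl (log2 fold change -2.02 ± 0.396, adjusted p = 0.0168), Acadm (-1.62 ± 0.328, adjusted p = 0.0180), Acaa2 (-1.90), Cpt2 (-1.60), Hadha (-1.37), Hadhb (-1.50) and Acadvl (-1.46). Acads (-1.06, adjusted p = 0.0899), Cpt1b (-2.07, adjusted p = 0.0872) and Cpt1a (0.08, adjusted p = 0.682) were not called. The count rested on single mice: it was 0 without WT-SFD mouse 1, WT-SFD mouse 2 or KO-SFD mouse 1. It was 2 without WT-HFD mouse 1, 2 or 3 or KO-HFD mouse 1, 3 or 4, 3 without WT-HFD mouse 4, 4 without KO-HFD mouse 2 and 5 without KO-SFD mouse 2. It was 9 without WT-SFD mouse 3 or KO-SFD mouse 3. The calls over all genes moved likewise, from 584 to 0 in each of the first 3 of these fits, to 150 to 342 without an HFD mouse, to 498 without KO-SFD mouse 2, and to 1929 and 978 without WT-SFD mouse 3 and KO-SFD mouse 3. In WT alone, none of the 10 was called with all mice. There 9 were called without WT-SFD mouse 3 (1907 of 15329 genes), 6 without KO-SFD mouse 1 (630 of 15226 genes) and 5 without KO-SFD mouse 3 (438 of 15291 genes).

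Across the 14 aortae the 9 genes other than Cpt1a correlated with the mean of the adipocyte markers at a Pearson r of 0.87 to 0.98 on log2 FPM and with each other at 0.82 to 0.99 (median of 36 pairs 0.96), while Cpt1a correlated with them at -0.20 to -0.02. The points share depth and dissection, and these values are a description. With the adipocyte marker mean as a covariate, a term that itself differs with diet, the median log2 fold change of the 10 genes was -0.16 in WT and 0.11 in KO, and none was called in the averaged contrast, where its median was 0.02. In the averaged contrast 7 of the 8 white and 5 of the 6 brown adipocyte markers fell on HFD, with no call left without WT-SFD mouse 1, WT-SFD mouse 2 or KO-SFD mouse 1. Examples are Adipoq, an adipocyte hormone (log2 fold change -3.55 ± 0.679, adjusted p = 0.0168), and Ucp1 (-3.57 ± 0.917, adjusted p = 0.0410). In these bulk libraries fewer cells of a type and less RNA per cell cannot be told apart, and the part of adipocyte transcripts in the result was not tested beyond this covariate. The part of the heart muscle markers of WT-SFD mouse 2 and KO-SFD mouse 2, and of the lower smooth muscle and fibroblast markers, was not tested either. Nor was that of the skeletal muscle markers of WT-SFD mouse 1 or the leucocyte markers of KO-SFD mouse 1.

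**Figure D2:**
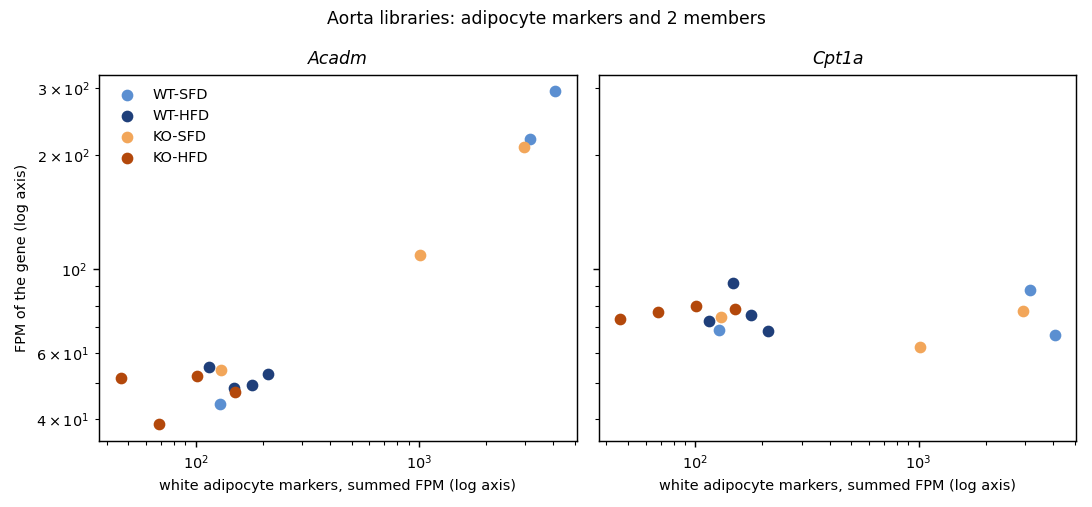
FPM of Acadm (left) and Cpt1a (right) against the summed FPM of 8 white adipocyte markers in the 14 aorta libraries, both axes logarithmic, 1 point per mouse coloured by group. The 4 SFD libraries with 1014 to 4074 FPM of markers hold the 4 highest Acadm values (109 to 295 FPM), and Cpt1a shows no such order.

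Genotype made no called difference to the 10 genes in the aorta. On SFD all 10 were lower in KO than in WT, with a median log2 fold change of -0.65 against -0.03 over all genes, the largest for Acads (-0.98 ± 0.492, adjusted p = 0.760). With library totals in place of TMM factors 9 of the 10 were lower and the median was -0.45, while the median over all genes moved to 0.27. The estimates rested on single mice: the median was -0.17 without WT-SFD mouse 1, -0.21 without KO-SFD mouse 3, -1.13 without WT-SFD mouse 3 and -1.46 without KO-SFD mouse 1, and Cpt1a and Cpt1b reached 0.07 and 0.52 with a library left out. The median was -0.15 in the fit that includes the adipocyte markers as a covariate. On HFD the median was -0.19, and only Acadvl was lower in every KO mouse, at 15.0 to 17.8 FPM against 18.3 to 26.9 FPM in WT (2.03% of all genes). edgeR called 0.0811% of all genes on each diet. None of the 10 reached an unadjusted p under 0.05 on either diet (6.54% of all genes on SFD and 5.35% on HFD), and DESeq2 called none. The difference of the diet effects, KO minus WT, was above 0 for all 10 genes, from 0.07 for Cpt1a to 0.81 for Hadha on the log2 scale, with a median of 0.47 against 0.02 over all genes. With library totals the median over all genes was -0.20, and 2 of the 10 were below 0. The median was -0.03 without WT-SFD mouse 1, where 6 of the 10 were below 0, 0.05 without KO-SFD mouse 3, 0.94 without WT-SFD mouse 3 and 1.21 without KO-SFD mouse 1. The difference was called for none (0% of all genes, smallest adjusted p = 0.998). None had an unadjusted p under 0.05 (4.37% of all genes) and DESeq2 called none, so that the diet effects of WT and KO were not shown to differ.

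In the kidney Acadm was lower on HFD in every mouse, and the other 9 genes were not called. WT-SFD kidneys measured 1109, 1363, 1312 and 1551 FPM of Acadm and WT-HFD kidneys 799, 1017, 1059 and 1010 FPM. KO-SFD kidneys had 1280, 1162, 1242 and 1389 FPM, and KO-HFD kidneys 953, 850, 922 and 973 FPM. All 8 HFD kidneys thus lay below all 8 SFD kidneys (0.273% of all genes), with group means ± SD of 1334 ± 182, 971 ± 117, 1268 ± 94.3 and 925 ± 53.6 FPM (n = 4 each) in the order given. The log2 fold change was -0.46 ± 0.123 (SE) in WT and -0.46 ± 0.123 in KO, with adjusted p values of 0.114 and 0.0647, so that edgeR called none of the 10 in either genotype (0.964% of all genes in WT and 2.39% in KO). At an unadjusted p under 0.05 Acadm alone of the 10 was lower in each genotype (3.27% of all genes in WT and 7.28% in KO), and none was higher. DESeq2 called Acadm in both genotypes (adjusted p = 0.00254 in WT and 0.00143 in KO), among 263 and 695 of the 15034 genes. In the averaged contrast Acadm fell by 0.46 on the log2 scale (SE 0.0867, adjusted p = 0.00464, a fold of 0.73), where 4.62% of all genes were called and 1.62% were lower. This call remained with each of the 16 libraries left out in turn, with adjusted p values of 0.00261 to 0.0130.

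Acadl and the remaining dehydrogenases did not follow Acadm. Acadl measured 338, 459, 397 and 455 FPM in WT-SFD, 363, 418, 410 and 430 in WT-HFD, 375, 364, 380 and 392 in KO-SFD, and 364, 347, 399 and 412 in KO-HFD kidneys. The groups overlapped, with a log2 fold change of -0.01 ± 0.0726 in the averaged contrast. The ratio of Acadm to Acadl per exon length was 1.52 to 1.75 in WT-SFD and 1.63 to 1.82 in KO-SFD, against 1.13 to 1.32 in WT-HFD and 1.18 to 1.34 in KO-HFD, without overlap between the diets. It was examined after the values had been seen and is given without a test. In the aorta the same ratio ran from 0.454 to 0.809 and the diets overlapped. Kidney Acadvl lay between 210 and 290 FPM and Acads between 195 and 363 FPM, with averaged log2 fold changes of 0.04 ± 0.0787 and -0.15 ± 0.138.

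Acaa2 pointed the other way. It measured 179, 330, 160 and 168 FPM in WT-SFD, 301, 322, 255 and 290 in WT-HFD, 195, 322, 189 and 211 in KO-SFD, and 228, 265, 393 and 325 in KO-HFD kidneys. On SFD mouse 2 of each genotype was as high as the HFD mice, and the other 6 were below every HFD mouse. The averaged log2 fold change was 0.44 ± 0.163 (adjusted p = 0.142). Without WT-SFD mouse 2 it was 0.59 and was called (adjusted p = 0.0140).

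Hadha ran from 259 to 367 FPM and Hadhb from 36.8 to 54.3 FPM over the 16 kidneys, with averaged log2 fold changes of -0.01 ± 0.0686 and 0.03 ± 0.0847. Hadhb on HFD was higher in every KO than in every WT kidney (0.645% of all genes), at 43.9 to 51.2 against 38.4 to 43.8 FPM, with a log2 fold change of 0.17 ± 0.120 that was not called. Cpt1a ran from 331 to 574 FPM (0.13 ± 0.103) and Cpt2 from 139 to 237 FPM (0.11 ± 0.104). Cpt1b stayed between 0.377 and 3.28 FPM, or 6 to 68 counts per kidney. Its log2 fold change with diet was 0.39 ± 0.388 in WT and -0.56 ± 0.368 in KO, and the difference of the 2 effects, -0.95 ± 0.535, was not called. Between the genotypes the median log2 fold change of the 10 was 0.06 on SFD and 0.02 on HFD, and the difference of the diet effects had a median of -0.03. None was called, where edgeR called 0.0133% of all genes on SFD, 0% on HFD and 0% for the difference. Only Cpt1b on SFD had an unadjusted p under 0.05 (0.79 ± 0.371, adjusted p = 0.574), where this held for 8.69% of all genes on SFD, 1.75% on HFD and 3.35% for the difference. DESeq2 called none.

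**Figure D3:**
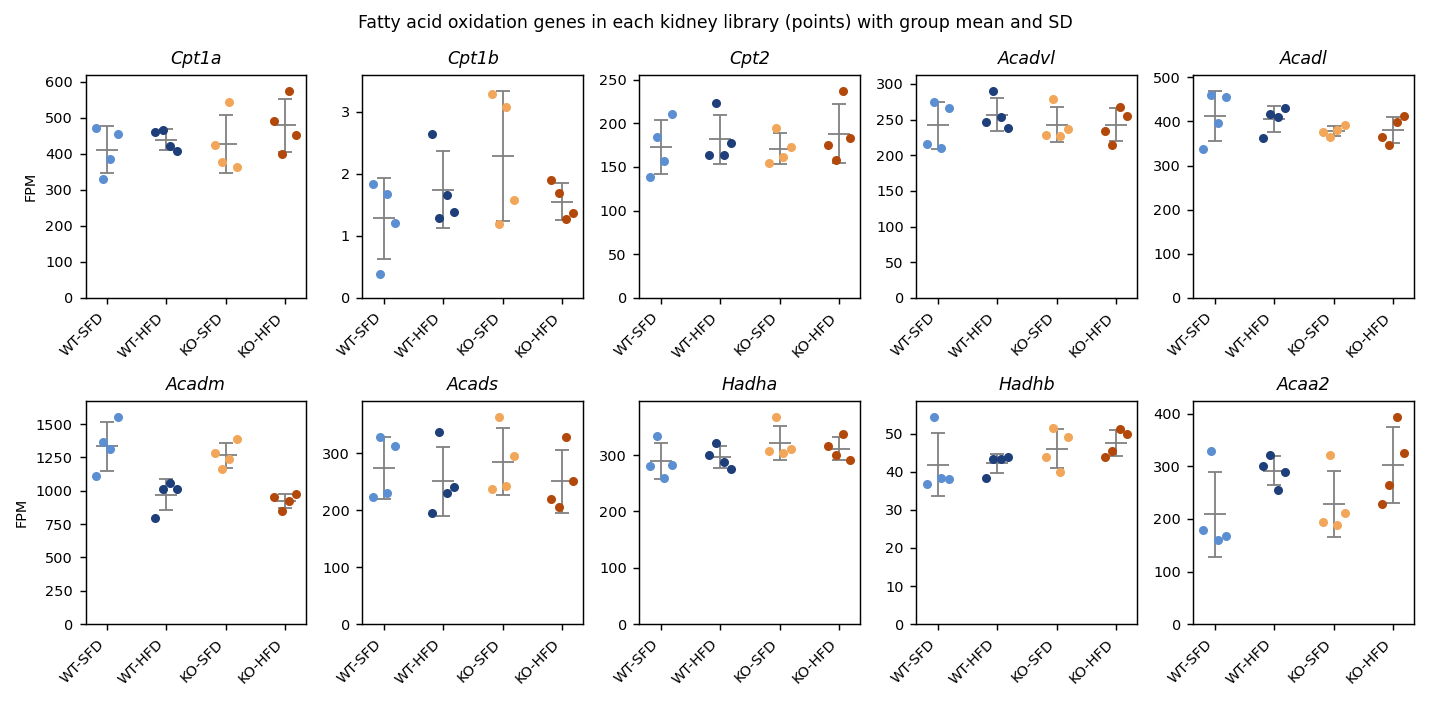
FPM of each gene (vertical axes, each from 0) in the 16 kidney libraries by group, with points for mice and grey bars for the group mean and SD. Acadm is the panel in which the HFD points (799 to 1059 FPM) lie below all SFD points (1109 to 1551 FPM).

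**Figure D4:**
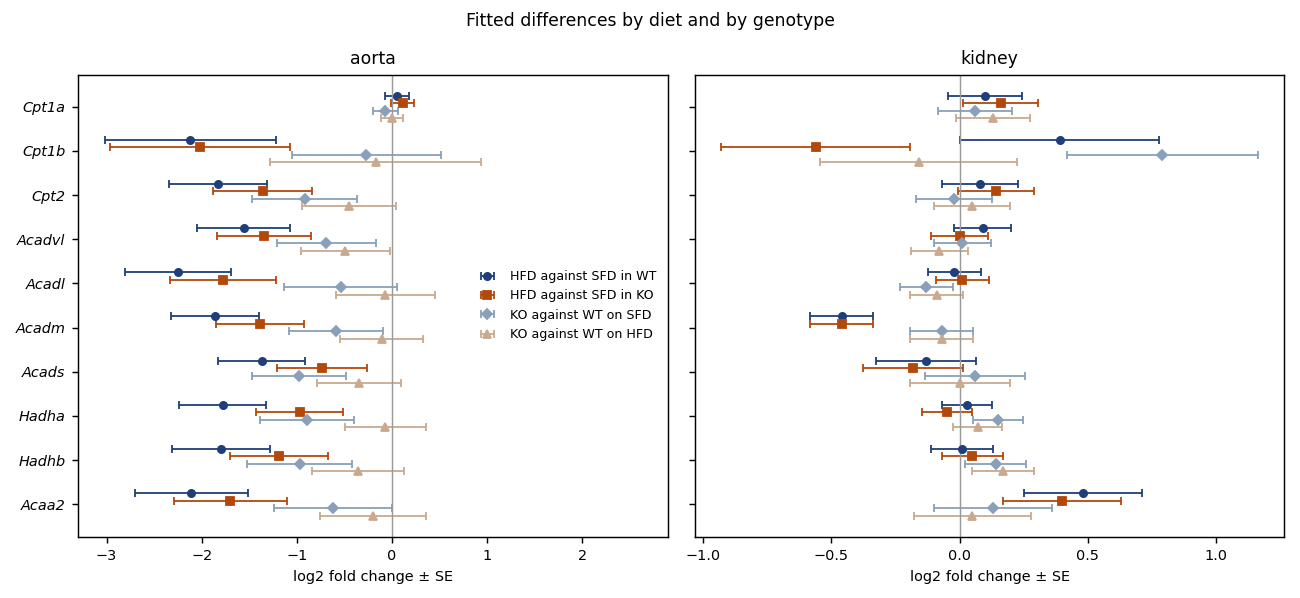
Log2 fold changes with their SE (horizontal axes, with different ranges) for the 10 genes in 4 comparisons, aorta left and kidney right. In the aorta both diet estimates lie below 0 for 9 genes, and in the kidney Acadm has both at -0.46.

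White adipocyte markers in the kidney summed to 78.0 to 842 FPM, with all 8 counted and Fabp4 the most abundant. The mean of the white and brown adipocyte markers together correlated with the 9 genes other than Cpt1a at -0.07 to 0.32 over the 16 libraries (Acadm at 0.23), and with Cpt1a at -0.29. Proximal tubule markers summed to 24673 to 36121 FPM in WT-SFD, 17415 to 29668 in WT-HFD, 23655 to 33824 in KO-SFD and 20982 to 29298 in KO-HFD, and the ranges overlapped between the diets. Thick ascending limb and distal tubule markers, led by Umod with all 4 counted, summed to 5870 to 7623 FPM in WT-SFD and 5203 to 7064 in WT-HFD, and to 7487 to 8074 in KO-SFD and 4218 to 6381 in KO-HFD, where every HFD kidney was lower. The part of these cell types in the Acadm result was not tested. Among themselves the kidney values correlated at -0.64 (Acads with Cpt1b) to 0.82 (Acadvl with Cpt2), again as a description.

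Levels between genes were compared per kilobase of exon (FPM per kb). In the kidney Acadm came first at a median of 277 FPM per kb, above Acadl (197) in all 16 libraries, and was followed by Acaa2 (172), Acads (106), Acadvl (90.2), Cpt2 (72.7), Cpt1a (57.3), Hadha (34.6), Hadhb (6.65) and Cpt1b (0.479). Acadl was above Acaa2 in 10 of 16 kidneys only, so that these neighbours were not separated by their spread. In the aorta Acadl came first in all 14 libraries, with a median of 18.4 FPM per kb, and was followed over all groups by Acadm (13.4), Acaa2 (11), Cpt1a (9.83), Hadha (8.13), Acadvl (7.49), Cpt2 (6.99), Acads (4.45), Hadhb (3.96) and Cpt1b (0.114). Acadm was above Acaa2 in 10 of 14 aortae and Hadha above Acadvl in 8 of 14. Hadhb was above Acads in 8 of 14, although its pooled median was lower. These neighbours were not separated. The place of Cpt1a depended on the group. In WT-SFD aortae its median of 9.03 FPM per kb lay below those of Hadha (31.0), Acadvl (29.0), Cpt2 (28.4), Hadhb (18.7) and Acads (14). In WT-HFD aortae it ran from 8.95 to 12.0 FPM per kb, above Hadha at 6.67 to 8.90. With the longest transcript as the length, Acadm was above Acadl in 11 of 14 aortae, so that the first place depends on the length used. That length also put Hadha above Acaa2 in 13 of 14 aortae, and in the kidney it put Cpt1a (101) and Hadha (75.2) before Cpt2 (73.2).

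Over all groups kidney medians were above aorta medians for all 10 genes. The ratio was 23.9 for Acads, 20.7 for Acadm, 15.6 for Acaa2, 12.0 for Acadvl, 10.7 for Acadl, 10.4 for Cpt2, 5.83 for Cpt1a, 4.26 for Hadha, 4.19 for Cpt1b and 1.68 for Hadhb. In WT-SFD mice alone, with their high aortae, the direction turned for Hadhb (5.80 FPM per kb in the kidney and 18.7 in the aorta), Hadha (32.3 and 31.0) and Cpt1b (0.428 and 0.395) lay close together, and Acadm (342 and 56.3) and Acadl (212 and 109) were nearer than in the pooled medians. Acadm reached at most 75.4 FPM per kb in an aorta and at least 204 in a kidney. Hadha, Hadhb and Cpt1b overlapped between the tissues, Hadhb with 2.59 to 24.1 FPM per kb in the aorta and 5.58 to 8.24 in the kidney. The mouse with the highest aortic Acadm (295 FPM, WT-SFD mouse 1) had the lowest Acadm of the 8 SFD kidneys (1109 FPM). With library totals in place of TMM factors KO-SFD mouse 2 was the lowest (1088 FPM, against 1147 in WT-SFD mouse 1). Only 3 mice gave both tissues, so that no relation between the tissues can be read from this. The ratio of Hadhb to Hadha, 2 subunits of 1 enzyme, was 0.357 to 0.630 in the aorta and 0.170 to 0.227 in the kidney, without overlap. The tissues were sequenced at different sites and scaled separately, so that tissue and site cannot be told apart and no test was made.

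**Figure D5:**
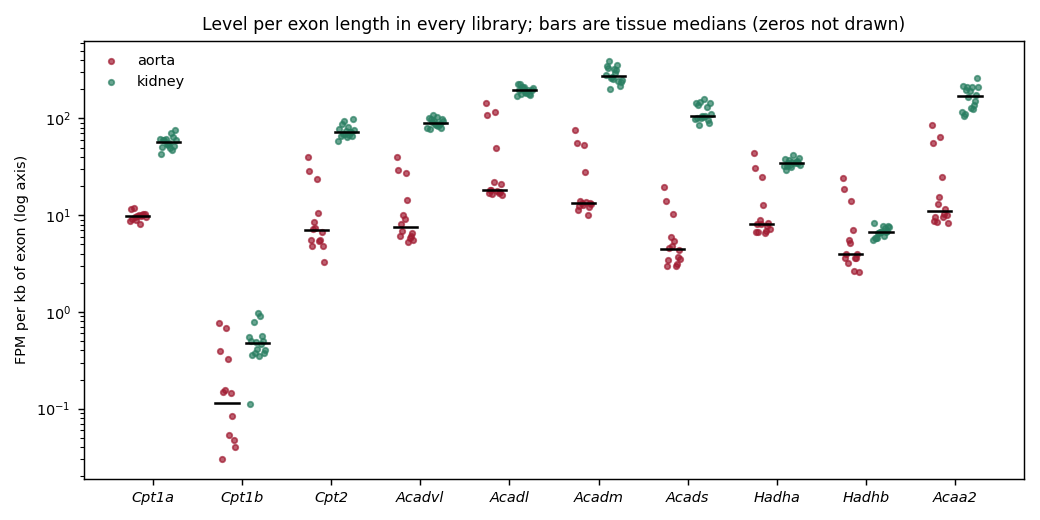
FPM per kb of exon (logarithmic axis) of the 10 genes in every aorta (red) and kidney (green) library, with black bars for the medians of each tissue. The medians pooled over groups lie lower in the aorta for all 10 genes, most for Acads and least for Hadhb (in WT-SFD mice alone Hadhb was higher in the aorta), and 2 aortae with 0 counts of Cpt1b are not drawn.

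Further genes of the pathway were followed as a list of 28, of which 24 were tested in both tissues. The other 4 (Slc25a20, Etfa, Acad11 and Mlycd) are listed at 0 in every library and were not analysed here. In the aorta 22 of the 24 were lower on HFD in WT (median -1.19) and 21 in KO (median -0.73). None was called in either, with 19 and 12 lower at an unadjusted p under 0.05 (11.3% and 5.11% of all genes). In the averaged contrast 11 of the 24 fell and none rose (3.95% of all genes called, 3.58% lower), and no gene at all was called without WT-SFD mouse 1, WT-SFD mouse 2 or KO-SFD mouse 1. These included Acsl1, which activates long-chain fatty acids (log2 fold change -2.03 ± 0.416, adjusted p = 0.0193), Acacb, which makes the malonyl-CoA that inhibits Cpt1 (-2.71 ± 0.535, adjusted p = 0.0169), the coactivator Ppargc1a (-1.51 ± 0.323, adjusted p = 0.0218) and the nuclear receptor Ppara (-2.23 ± 0.508, adjusted p = 0.0260). Both enzymes of the list's short-chain steps fell, Hadh by 1.45 and Echs1 by 1.04 on the log2 scale, and so did both tested electron transfer genes, Etfb by 1.53 and Etfdh by 1.39. The remaining 3 were Crat (-1.49), Eci1 (-1.58) and Decr1 (-1.23). Bdh1 (-0.05) and Oxct1 (0.19), which act on ketone bodies, were not called. Ppargc1a and Echs1 were lower in every WT-HFD mouse (4.53% of all genes), Ppargc1a at 5.20 to 5.63 FPM against 31.1, 22.2 and 8.23 FPM on SFD. With the adipocyte marker mean as covariate 3 genes in all were called in the averaged contrast.

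Kidney companions were called in the averaged contrast only, 4 of the 24 (4.62% of all genes). Acacb fell by 0.61 (SE 0.150, adjusted p = 0.0271), Ppard by 0.47 (SE 0.118, adjusted p = 0.0300) and Oxct1, the enzyme that puts ketone bodies to use, by 0.29 on the log2 scale (SE 0.0762, adjusted p = 0.0358), and Ppara rose by 0.79 (SE 0.204, adjusted p = 0.0353). Ppara measured 38.0, 16, 26.6 and 33.3 FPM in WT-SFD, 62.1, 37.2, 38.9 and 33.2 in WT-HFD, 25.8, 14.2, 38.4 and 23.7 in KO-SFD, and 47.6, 48.3, 68.1 and 39.0 in KO-HFD. It was higher in every HFD mouse in KO (5.02% of all genes) and overlapped in WT. The within-genotype values with the smallest p were -0.72 ± 0.167 for Ppard in WT (adjusted p = 0.0511) and -0.42 ± 0.115 for Bdh1 in KO (adjusted p = 0.0711).

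The genes most like the 10 were found by the Pearson correlation of their log2 FPM with the mean of the standardised members. Over the 14 aortae these were Adipor2, an adiponectin receptor, Gpd2, the mitochondrial glycerol-3-phosphate dehydrogenase, Decr1, which handles unsaturated chains, the fatty acid transporter Cd36 and the lipase Lipe, each at 0.99. Over the 16 kidneys these were Ech1 (0.92), also an enzyme of unsaturated chains, Bckdk (0.91), Pkdcc (0.90), Prdx3 (0.90) and Cstb (0.89). The 10 genes correlated with each other at a median of 0.23 in the kidney, against 0.94 in the aorta. The kidney list therefore describes their mean and not a profile shared by the single genes.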

How the data were processed

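RNA of single aortae and kidneys was sequenced paired-end. The authors trimmed with cutadapt, aligned to GRCm38/mm10 with TopHat and counted with featureCounts, and the deposited values are raw counts per gene without normalisation, 1 column per mouse. After counting, the study annotated genes with BiomaRt. How strand, multiply mapped reads and the gene annotation were set in the counting itself is not given in the sources used here. All protein-coding genes of chromosomes 9, X and Y, of the mitochondrial genome and of the end of chromosome 8 are listed at 0 counts in both deposited files, so that library totals hold none of them and list members there could not be tested. Mice were grouped by the genotype and diet of their labels, and the replicate spread is that between mice.

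R 4.3.3 with edgeR 4.0.16 was used. Counts were scaled by TMM and filtered by filterByExpr, and the 4 groups of each tissue entered 1 fit by glmQLFit and tested by glmQLFTest, with adjusted p under 0.05 (0.001, the limit in the study's methods, was an alternative). SE is the log2 fold change divided by the root of F. Log2 FPM for correlations used a prior count of 2. Exon lengths and positions came from GENCODE vM21 (mm10), where 40254 of 41128 genes were found, and promoters from RefSeq. The averaged diet contrast was chosen later, with the data in view. Alternatives were DESeq2 1.42.0, RLE factors, library totals, no filter, the legacy quasi-likelihood test, only the groups compared, an adipocyte covariate (aorta) and leaving out each library. The fits were also run on simulated data, and no outcome of that run is given here. The members and lists were chosen with earlier results of these data known. Named are the 10 members, Egfr, companions called in a contrast or among the 2 smallest p per direction, markers, and the 5 most correlated genes per tissue. A result on 1 companion gene is not reported here.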

Additional observations from a re-analysis of the deposited data

Results flagged for a closer look

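Among the 60 sets of 4 mice examined (10 genes in 6 groups of 4 mice), 5 held 1 mouse whose gap to the nearest other exceeded Dixon's critical value for 4 samples. Chance alone gives about 1 in 20. All 5 were in the kidney. WT-SFD mouse 2 was the highest of its group for Hadhb (54.3 FPM) and for Acaa2 (330 FPM), KO-SFD mouse 2 the highest for Hadha (367 FPM) and for Acaa2 (322 FPM), and WT-HFD mouse 1 the lowest for Hadhb (38.4 FPM).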

How the results depend on the processing

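No paired analysis was possible because the labels give mouse numbers only and the groups of a tissue share none. In the aorta the number of members called in WT was 0, but 3 with DESeq2, 4 with library totals, 3 without the low count filter and 0 to 9 with a library left out (6 without KO-SFD mouse 1 and 5 without KO-SFD mouse 3). In the averaged contrast it was 7, 0 with the adipocyte covariate, 0 at an adjusted p under 0.001 and 0 to 9 with a library left out. That covariate moved the median from -1.81 to -0.16 in WT, from -1.36 to 0.11 in KO and from -1.55 to 0.02 in the averaged contrast. The sign changed in WT for Acadvl (to 0.02), Acads (to 0.05) and Cpt1b (to 0.94). In KO it changed for Acadvl (to 0.08), Acads (to 0.46), Hadha (to 0.30), Hadhb (to 0.31), Cpt1b (to 0.40), Cpt2 (to 0.01) and Acaa2 (to 0.07). In the averaged contrast it changed for Acadvl (to 0.05), Acads (to 0.26), Hadhb (to 0.08) and Cpt1b (to 0.67). The cause was not tested. None of these values above 0 was called (edgeR, adjusted p of 0.851 to 0.999), so that no rise on HFD was shown. With a library left out Cpt1a in WT ran from -0.05 to 0.19.

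In the kidney Acadm accounted for 1 member called in WT with DESeq2 and 1 with library totals, and for 1 in KO with DESeq2, 1 with library totals and 1 without the filter (0 to 1 with a library left out). The averaged contrast had 1 called, 0 at 0.001, and 1 to 2 with a library left out. Estimates near 0 changed sign with a library left out. In WT Acadl ran from -0.11 to 0.03, Hadha from -0.02 to 0.11, Hadhb from -0.04 to 0.16 (-0.01 without WT-HFD mouse 4) and Cpt2 from -0.03 to 0.18. In KO Acadl ran from -0.03 to 0.04 (-0.01 without KO-SFD mouse 2), Acadvl from -0.04 to 0.07, Hadha from -0.08 to 0.02 and Hadhb from -0.02 to 0.10. In the averaged contrast Acadl ran from -0.05 to 0.02, Hadha from -0.03 to 0.03 (0.00 with library totals), Hadhb from -0.00 to 0.10 and Cpt1b from -0.24 to 0.03. The member medians ran from -0.05 to 0.12 for KO against WT on SFD, from -0.08 to 0.10 on HFD and from -0.14 to 0.03 for the difference of the diet effect.

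Over all genes the WT diet comparison in the aorta called 0 genes, 666 with DESeq2, 312 with library totals, 347 without the filter and up to 1907 without WT-SFD mouse 3. The averaged contrast called 584 (54 higher), 1007 with DESeq2 (195 higher), 3 with the covariate, and 0 to 1929 with a library left out. In the kidney the calls were 145 in WT (263 with DESeq2), 360 in KO (695 with DESeq2) and 695 averaged (1101 with DESeq2). Library totals moved the median gene of the aorta most for KO against WT on SFD, from -0.03 to 0.27, so that directions there are relative. Cpt1b had 0 to 68 counts per library, so that its estimates rest on few counts.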
